A study of Mus musculus with 23 samples.

Results

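The genes examined here are 7 genes of antigen presentation by major histocompatibility complex (MHC) class II in mouse sciatic nerve (SN): H2-Aa, H2-Ab1, H2-Eb1, H2-DMa, H2-DMb1, Cd74 and Ciita. They were chosen by name, and all 7 were found among the 43068 genes listed for the nerve crush experiment and the 22880 genes listed for the knockout experiment. RNA of whole nerves was sequenced in 23 libraries. In the crush experiment, wild-type male C57BL/6J mice aged 2 months had one SN crushed at the sciatic notch, and 3 days post crush (dpc) the part distal to the injury was collected (crushed, n = 4), as was the nerve of the other side (contralateral, n = 4). Nerves of operated animals without a crush were the surgery controls (uncrushed, n = 3). In the knockout experiment, inducible knockout (iKO) mice carried P0-CreERT2 -/+ with Dicer1 flox/flox (Dicer iKO, n = 3) or Dgcr8 flox/flox (Dgcr8 iKO, n = 3). Their controls were P0-CreERT2 -/- with the same floxed alleles (n = 3 for each gene). Mutants and controls of either sex on a C57BL/6J background received tamoxifen at 8 to 10 weeks of age, and nerves were taken 3 months post tamoxifen (mpT). The Cre transgene directs recombination to adult myelinating Schwann cells (SCs). The mutants had been selected for affected nerve morphology because not all animals were affected, so they do not stand for all induced mice.

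Class II molecules present peptides from internalized proteins to CD4+ T cells. H2-Aa and H2-Ab1 encode the alpha and beta chains of I-A, and H2-Eb1 encodes the beta chain of I-E. In C57BL/6J mice the alpha gene of I-E is defective, so the H2-Eb1 transcript is made without a complete I-E molecule. Cd74 is the invariant chain, which guides new class II molecules to endosomes and blocks their groove. H2-DMa and H2-DMb1 encode chains of H2-DM, the endosomal exchange factor that removes the invariant chain remnant and loads peptide. Ciita is the transactivator that class II promoters depend on. Macrophages, dendritic cells and B cells are the classical class II cells, and interferon-gamma can induce the genes in other cell types.

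Of the 7 genes, 5 lie in the class II region of chromosome 17 (GRCm38, GENCODE annotation), in the order H2-DMa (34119541 to 34139101), H2-DMb1 (34153072 to 34160230), H2-Ab1 (34257689 to 34269419), H2-Aa (34282744 to 34287823) and H2-Eb1 (34305867 to 34316674). H2-Aa is on the minus strand and the other 4 are on the plus strand. The annotated span of H2-DMa overlaps that of Brd2 on the opposite strand, and a long antisense gene, Gm20513, overlaps H2-Eb1. RefSeq promoter windows (GRCm38.p6, 250 bases before to 50 after a start site) were at hand for 4 members, H2-Aa, H2-Eb1, H2-DMa and H2-DMb1. They were searched on both strands for the letters ATTGG (Y box) and ACNGATG (X box core), which stand for the elements bound by the class II enhanceosome. The stretch from 130 to 41 bases before the start is shown for these 4 and for the neighbouring H2-DMb2, because H2-DMa and H2-DMb1 changed in the opposite direction to the other members in the results that follow. Capitals mark each X box core and Y box.

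H2-DMa: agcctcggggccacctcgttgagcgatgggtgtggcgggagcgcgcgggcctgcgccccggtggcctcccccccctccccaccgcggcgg
H2-DMb1: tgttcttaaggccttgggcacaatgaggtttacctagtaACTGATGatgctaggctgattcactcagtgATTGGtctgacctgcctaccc
H2-DMb2: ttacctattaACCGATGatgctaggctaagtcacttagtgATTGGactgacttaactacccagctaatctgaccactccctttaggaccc
H2-Eb1: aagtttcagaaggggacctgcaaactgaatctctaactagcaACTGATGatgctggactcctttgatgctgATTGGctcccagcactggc
H2-Aa: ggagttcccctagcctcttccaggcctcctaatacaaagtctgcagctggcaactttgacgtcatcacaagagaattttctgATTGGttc

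The stretches are chr17:34122702-34122791 for H2-DMa, chr17:34153061-34153150 for H2-DMb1, chr17:34145119-34145208 for H2-DMb2 and chr17:34305737-34305826 for H2-Eb1, all on the plus strand, and chr17:34287864-34287953 on the minus strand for H2-Aa. An X box core was followed by a Y box in the windows of H2-DMb1 and H2-DMb2 (30 bases from the start of one to the start of the other) and of H2-Eb1 (29 bases). Of all 32851 mouse promoter windows, 0.167% held this pair, 37.4% a Y box and 9.85% an X box core. The H2-Aa window held a Y box, and an X box core on the other strand farther upstream. The H2-DMa window at the start of its coding transcript held neither, and a downstream alternative start had only a Y box. The GAS element TTCNNNGAA, a binding sequence of interferon-gamma signalling that 8.3% of windows held, was absent from the windows of all 4 members. The H2-DMa window at the start of its coding transcript (34122582 to 34122881) also covers the annotated start of Brd2 (34122634, minus strand). Its letters are therefore not particular to H2-DMa. With that limit, the windows of H2-DMb1 and H2-DMa differed in these letters, and both genes fell together in the data below. A match or its absence describes these letters only.

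Library totals ranged from 6617716 to 12806066 assigned reads in the crush experiment and from 5594859 to 10143244 in the knockout experiment, and 3 reads, taken as the floor, came to 0.234 to 0.453 and 0.296 to 0.536 CPM. CPM are counts relative to the library total and were scaled by trimmed mean of M values (TMM) within each experiment. The labels name different library kits for the experiments, so levels were not compared between them. By the Y-linked gene Ddx3y, the Dicer controls held 1 female and 2 males and the Dicer iKO 2 females and 1 male, while all other libraries were male. Dicer1 was at 81.4 to 82.2 CPM in Dicer iKO and at 87.5 to 90.6 CPM in its controls. Dgcr8 was at 39.4 to 54 CPM in Dgcr8 iKO and at 35.4 to 41.8 CPM in its controls. These whole-gene values include reads outside the floxed parts and from other cell types, so they do not test recombination. In bulk tissue, fewer cells of a type and less RNA per cell cannot be told apart.

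At 3 dpc, the genes of the class II chains, the invariant chain and Ciita rose in crushed SN, while both H2-DM genes fell. Genes were called at a fold change of at least 2 and an adjusted p of at most 0.05 in edgeR's quasi-likelihood test, with p-values adjusted over all genes tested. Against uncrushed nerves, 4 of the 7 genes were called higher, where 15.3% of all genes tested were called higher. Also against uncrushed nerves, 2 were called lower, where the share over all genes was 21.1%. Against contralateral nerves, 5 were called higher and 2 lower, where the shares over all genes were 14.6% and 13.6%. The comparisons share the crushed libraries, so they are not independent of each other. The median log2 fold change of the 7 genes was 1.07 against uncrushed and 1.22 against contralateral nerves, beside medians over all genes of -0.03 and -0.06.

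H2-Aa was at 37.6, 53.5, 60.7 and 71.6 CPM in the crushed libraries, at 33.3, 27.4 and 29.7 CPM in the uncrushed and at 28.4, 20.5, 24.9 and 23.3 CPM in the contralateral ones. All crushed values were above all others. Its log2 fold change was 1.22 (SE 0.17, adjusted p = 1.39e-05, edgeR) against contralateral nerves and 0.99 (SE 0.19, adjusted p = 6.19e-04) against uncrushed nerves, the latter just under the fold needed for a call. H2-Ab1, its partner chain, was at 42.6, 60.3, 71.4 and 75 CPM in crushed nerves, at 26.7, 27.5 and 21.6 CPM in uncrushed and at 28, 20.9, 26.1 and 25.6 CPM in contralateral nerves. The groups did not overlap, and the log2 fold change was 1.39 (SE 0.19, adjusted p = 3.63e-05, edgeR) against uncrushed and 1.33 (SE 0.15, adjusted p = 2.67e-06) against contralateral nerves. H2-Eb1 was at 34.7, 45.2, 53.5 and 52.1 CPM in crushed nerves, at 27.3, 21.2 and 22.3 CPM in uncrushed and at 24.7, 21.3, 22.7 and 21.9 CPM in contralateral nerves. Its rise was the smallest of the called ones, with a log2 fold change of 1.07 (SE 0.16) against uncrushed and 1.05 (SE 0.12) against contralateral nerves. The calls of H2-Aa against uncrushed nerves and of H2-Eb1 sit at the fold threshold. H2-Aa was called against uncrushed nerves without crushed library 1 (log2 fold change 1.11), crushed library 2 (1.003) or uncrushed library 1 (1.13), and the H2-Eb1 call was lost without crushed library 3 (0.99) or 4 (0.97), and against contralateral nerves without the same libraries (0.94 and 0.98).

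Cd74 (chromosome 18, 60803848 to 60812652) and Ciita (chromosome 16, 10480059 to 10528418) lie outside this region, both on the plus strand. By group mean, Cd74 had the highest level per transcript length of the 7 genes in all 3 groups. In single libraries, H2-DMa was above it in contralateral library 2 (55.7 against 49.6) and 3 (54.6 against 54). Cd74 was at 119, 142, 200.1 and 189.5 CPM in crushed nerves, at 71.7, 77.9 and 78.4 CPM in uncrushed and at 76, 56.7, 62.7 and 79.4 CPM in contralateral nerves. Its crushed values did not overlap the others. The log2 fold change was 1.205 (SE 0.17, adjusted p = 5.29e-05, edgeR) against uncrushed and 1.26 (SE 0.15) against contralateral nerves. Ciita had the lowest level per transcript length in all 3 groups and the highest log2 fold change of the 7 genes. It was at 10.9, 8.33, 12.9 and 11.5 CPM in crushed nerves, at 2.35, 3.02 and 2.4 CPM in uncrushed and at 2.56, 2.21, 4.53 and 3.4 CPM in contralateral nerves. The lowest crushed value was above the highest of the others, and the log2 fold change was 2.18 (SE 0.21, adjusted p = 2.67e-06, edgeR) against uncrushed and 1.82 (SE 0.21) against contralateral nerves.

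H2-DMa, in contrast, was at 8.77, 10.9, 12.3 and 13.3 CPM in crushed nerves, at 61.2, 60.3 and 55.4 CPM in uncrushed and at 63.7, 80.3, 75.5 and 62.6 CPM in contralateral nerves. H2-DMb1 was at 6.28, 8, 9.56 and 8.89 CPM in crushed nerves, at 37.7, 39.6 and 30.2 CPM in uncrushed and at 36.7, 46.5, 41.1 and 35.1 CPM in contralateral nerves. For both genes the crushed values were far below all others. H2-DMa fell by 2.28 (SE 0.13, adjusted p = 2.74e-08, edgeR) on the log2 scale against uncrushed and by 2.63 (SE 0.14, adjusted p = 4.81e-10) against contralateral nerves. H2-DMb1 fell by 2.04 (SE 0.15) and by 2.28 (SE 0.14) on the log2 scale in the same comparisons. As a consequence the order of the genes per transcript length turned around. In FPKM, the fragment count divided by transcript length and library depth, here scaled by TMM, uncrushed nerves had 45.8 ± 4.74 for H2-DMa and 27.8 ± 3.81 for H2-DMb1 beside 30.1 ± 3.01 for H2-Aa, 25.5 ± 3.54 for H2-Ab1 and 22.1 ± 3.01 for H2-Eb1 (SD, n = 3). The levels of H2-DMb1, H2-Aa and H2-Ab1 in this order did not differ beyond their spread. Crushed nerves had 11 ± 1.77 for H2-DMa and 6.32 ± 1.11 for H2-DMb1 beside 57 ± 14.7 for H2-Aa, 58.1 ± 13.5 for H2-Ab1 and 43.2 ± 8.04 for H2-Eb1 (SD, n = 4). Summed CPM of H2-DMa and H2-DMb1 over that of H2-Aa, H2-Ab1, H2-Eb1 and Cd74 was 0.622, 0.648 and 0.563 in the uncrushed libraries, 0.639 to 1.06 in the contralateral libraries and 0.0567 to 0.0644 in the crushed libraries.

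**Figure D1:**
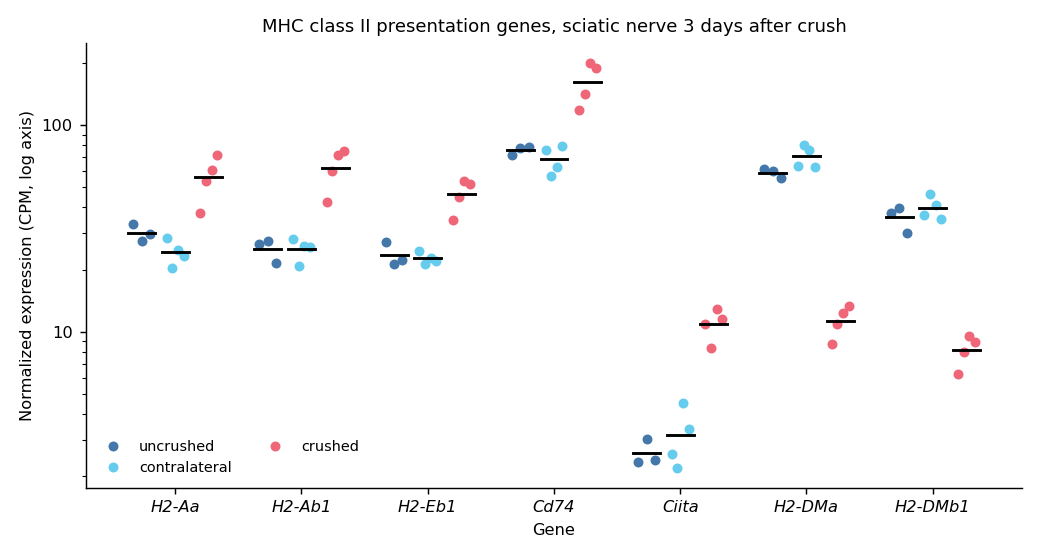
Each point is 1 library and each bar the group mean of CPM (log axis) for the 7 genes in uncrushed (n = 3), contralateral (n = 4) and crushed (n = 4) sciatic nerve. The crushed points of H2-Aa, H2-Ab1, H2-Eb1, Cd74 and Ciita lie above the other groups, and those of H2-DMa (8.77 to 13.3) and H2-DMb1 (6.28 to 9.56) lie below them.

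Contralateral and uncrushed nerves were compared to ask whether an injury on one side moved the genes on the other. None of the 7 genes was called, and the share called over all genes was 0%. At an unadjusted p under 0.05, 2 of the 7 members and 3165 of the 17722 genes tested passed in edgeR, and DESeq2 called no member and 1 gene in all. The largest difference among the members was that of H2-Aa, with a log2 fold change of -0.33 (SE 0.12, adjusted p = 0.218, edgeR), followed by Ciita at 0.28 (SE 0.29) and H2-DMa at 0.25 (SE 0.10, adjusted p = 0.246).

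**Figure D2:**
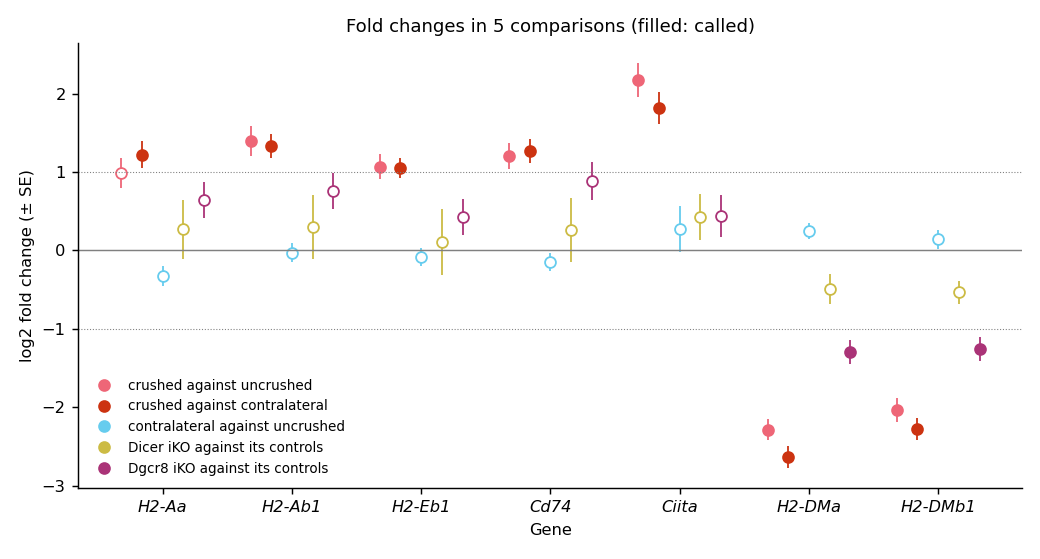
The log2 fold change (± SE) of each gene is plotted for 5 comparisons, with filled symbols for called genes and dotted lines at a fold change of 2. H2-DMa and H2-DMb1 lie below 0 in both crush comparisons (-2.63 to -2.04) and in Dgcr8 iKO (-1.29 and -1.26), opposite to the other 5 genes there.

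Genes working around the class II molecules were counted in the same fits. All 4 genes of peptide generation for class II were called higher in crushed against uncrushed nerves: Ctss, the cathepsin that trims the invariant chain, by 4.66 (SE 0.35) on the log2 scale, the asparaginyl endopeptidase gene Lgmn by 3.46 (SE 0.25), Ctsl by 2.18 (SE 0.19) and the thiol reductase gene Ifi30 by 1.39 (SE 0.20). Of the ubiquitin ligases that turn class II over, March1 was called higher (2.03, SE 0.26) and March8 was not called. Of 4 costimulatory genes, Cd80 (2.09, SE 0.57) and Icosl (1.40, SE 0.19) were called higher. None of the 7 regulators that work with Ciita was called in either direction. The largest difference among them was that of Nfyc (0.76, SE 0.12, adjusted p = 1.24e-04, edgeR), a subunit of the factor that binds the Y box. Of 9 class I presentation genes 1 was called higher, H2-D1 (1.001, SE 0.13), and of 8 tested interferon-gamma response genes Socs1 (1.995, SE 0.46) and Cxcl10 (1.45, SE 0.56) were. Cd80, Socs1 and Cxcl10 were at 0 to 1.03, 0.172 to 0.632 and 0.0903 to 0.686 CPM in uncrushed libraries, around the floor. A fall in these genes could hardly have been seen. In crushed libraries they were at 1.32 to 2.02, 0.946 to 2.04 and 0.567 to 1.47 CPM, so the groups of Cxcl10 overlapped. In contralateral libraries Cd80 was at 0.0947 to 0.403 CPM and Socs1 at 0.302 to 0.721 CPM. Counts against contralateral nerves were the same for peptide generation, ligases, costimulation and regulators, whereas the class I gene called was Nlrc5 (1.08, SE 0.16) and Socs1 (1.75, SE 0.35) was the only one called of 7 tested interferon-gamma response genes. Of the other class II genes, H2-Ob was called higher against contralateral nerves only (1.55, SE 0.43). It was at 1.05 to 2.11 CPM in crushed and 0.189 to 0.824 CPM in contralateral libraries, the latter around the floor. H2-DMb2, which lies between H2-DMa and H2-DMb1 and is a close relative of H2-DMb1, was at 1.71 to 3.59 CPM in crushed and 2.51 to 3.43 CPM in uncrushed nerves (log2 fold change -0.08, SE 0.29). Reads may be split between H2-DMb1 and H2-DMb2, so their levels are uncertain to that extent. Brd2, the next gene upstream of H2-DMa, was at 127 to 154 CPM in crushed and 128 to 151 CPM in uncrushed nerves.

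**Figure D3:**
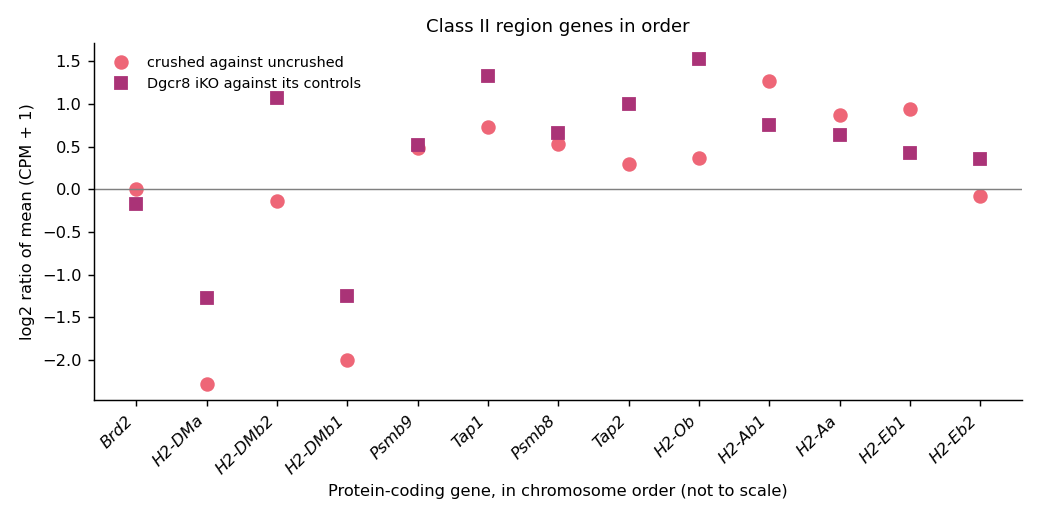
Protein-coding genes from Brd2 to H2-Eb2 are placed in chromosome order (equal spacing, not to scale) with the log2 ratio of group means (CPM + 1) for crushed against uncrushed nerves and for Dgcr8 iKO against its controls. H2-DMa (-2.28 and -1.27) and H2-DMb1 (-2.004 and -1.25) lie below all their neighbours, H2-DMb2 between them included (-0.14 and 1.07).

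Cell type markers moved with these changes. Of 14 macrophage markers, 12 were called higher in crushed against uncrushed nerves, and their summed level was 1007 to 2154 CPM in crushed, 302 to 350.0 CPM in uncrushed and 212 to 345 CPM in contralateral libraries. Of 8 tested dendritic cell markers, 3 were called higher (Cd209a, Itgax and Clec10a), although the summed level of the list was 43.8 to 51.1 CPM in crushed and 54.3 to 61.4 CPM in uncrushed nerves. Of 2 tested B cell markers both were called lower, and the list summed to 3.1 to 5.2 CPM in crushed and 7.22 to 14.8 CPM in uncrushed libraries. Of 3 tested T cell markers, 2 were called lower, and the list summed to 1.77 to 3.35 CPM in crushed and 5.78 to 7.55 CPM in uncrushed libraries. Against contralateral nerves, 0 of 2 tested B cell markers and 0 of 1 tested T cell markers were called. The contralateral libraries summed to 42.1 to 49.6 CPM for dendritic cell, 5.36 to 7.62 CPM for B cell and 2.44 to 3.41 CPM for T cell markers. The dendritic and T cell sums there overlapped those of crushed nerves. Of 3 tested monocyte and neutrophil markers, 2 were called higher. That list summed to 129 to 202 CPM in crushed, 5.6 to 10.5 CPM in uncrushed and 5.2 to 9.78 CPM in contralateral libraries. Of 8 SC markers, 6 were called lower, and their sum was 1979 to 2957 CPM in crushed, 40909 to 44071 CPM in uncrushed and 42891 to 56172 CPM in contralateral libraries. The macrophage markers rose by more than the class II genes. The summed CPM of the 6 members other than Ciita over that of the macrophage markers was 0.148 to 0.247 in crushed, 0.679 to 0.841 in uncrushed and 0.747 to 1.16 in contralateral libraries. With H2-Aa, H2-Ab1, H2-Eb1 and Cd74 alone, it was 0.14 to 0.232 in crushed and 0.434 to 0.51 in uncrushed nerves. The summed H2-DM genes per 1000 CPM of SC markers were 2.09 to 2.29 CPM in uncrushed, 2.23 to 2.37 CPM in contralateral and 5.09 to 11.2 CPM in crushed libraries, so the SC markers fell by more than H2-DM. The part of cell composition in the changes of the 7 genes was not tested.

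In adult nerves at 3 mpT, both H2-DM genes fell in Dgcr8 iKO. Of the 7 genes, 2 were called lower, H2-DMa and H2-DMb1, where 6.99% of all genes tested were called lower. None was called higher, where 13.4% of all genes were. H2-DMa was at 50.8, 51.8 and 35.8 CPM in Dgcr8 iKO and at 119, 114 and 105 CPM in the controls. H2-DMb1 was at 60.3, 74.9 and 50.4 CPM in Dgcr8 iKO and at 159.9, 143 and 141 CPM in the controls. Neither gene's groups overlapped, and they fell by 1.29 (SE 0.15, adjusted p = 6.73e-05, edgeR) and 1.26 (SE 0.15, adjusted p = 7.72e-05) on the log2 scale. Per transcript length, H2-DMa went from 99 ± 12.1 to 37.4 ± 9.34 FPKM and H2-DMb1 from 121 ± 8.54 to 50.7 ± 10 FPKM (SD, n = 3 each).

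The other 5 genes had higher means in Dgcr8 iKO without reaching a 2-fold change. Cd74 was at 234, 443 and 230.0 CPM in Dgcr8 iKO and at 138, 179 and 173 CPM in the controls, without overlap (log2 fold change 0.89, SE 0.24, adjusted p = 0.0108, edgeR). H2-Ab1 was at 92.2, 176 and 92.2 CPM and at 64.4, 81 and 67.9 CPM in the controls, also without overlap (0.76, SE 0.23, adjusted p = 0.0194, edgeR). H2-Aa was at 149, 255 and 136 CPM and at 99.7, 139.998 and 106 CPM in the controls, where 1 control exceeded 1 mutant (0.64, SE 0.23, adjusted p = 0.0374, edgeR). H2-Eb1 was at 94.9, 177 and 94.5 CPM against 77.4, 104 and 91 CPM (0.43, SE 0.23, adjusted p = 0.146, edgeR), and Ciita at 9.68, 16.5 and 11.4 CPM against 7.92, 13.1 and 7.05 CPM (0.44, SE 0.27, adjusted p = 0.208). For these 2 the groups overlapped. Dgcr8 iKO library 2 had the highest value of all 5 genes, and without it the log2 fold change was 0.51 for Cd74, 0.38 for H2-Ab1 (adjusted p = 0.0502, edgeR) and 0.31 for H2-Aa (adjusted p = 0.154). Cd74 was called higher without Dgcr8 iKO library 1 (1.04) or 3 (1.05).

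**Figure D4:**
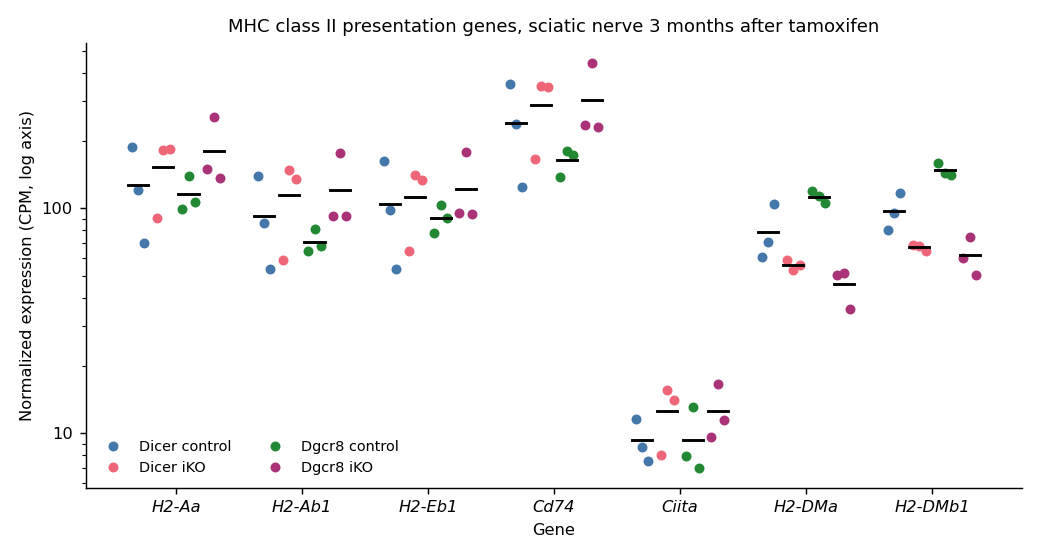
Each point is 1 library and each bar the group mean of CPM (log axis) for the 7 genes in Dicer controls, Dicer iKO, Dgcr8 controls and Dgcr8 iKO (n = 3 each). The H2-DM genes of Dgcr8 iKO (35.8 to 74.9) lie below their controls (105 to 159.9), whereas the Dicer controls spread over a wide range for the class II chains and Cd74.

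In Dicer iKO no member was called, where 7.37% of all genes tested were called higher and 1.64% lower. At an unadjusted p under 0.05, 2 of the 7 members and 4736 of the 13045 genes tested passed in edgeR, and DESeq2 called no member. H2-DMa was at 58.9, 53.4 and 56.3 CPM in Dicer iKO and at 61.1, 70.7 and 105 CPM in the controls, and H2-DMb1 was at 69, 68.4 and 64.7 CPM and at 80.2, 95.4 and 117 CPM. All mutant values were below all control values for both genes, but narrowly for H2-DMa (58.9 and 61.1 CPM), and neither gene was called. The log2 fold change was -0.49 (SE 0.19, adjusted p = 0.113, edgeR) for H2-DMa and -0.53 (SE 0.14, adjusted p = 0.0356) for H2-DMb1. Cd74 was at 165, 351 and 345 CPM in Dicer iKO and at 358, 238 and 125 CPM in the controls. H2-Aa was at 90.5, 182 and 184 CPM against 188, 121 and 70.3 CPM, H2-Ab1 at 58.9, 148 and 136 CPM against 139, 86 and 53.8 CPM, and H2-Eb1 at 64.5, 141 and 133 CPM against 163, 98.1 and 53.8 CPM. In each of these the groups overlapped, with mutant library 1 low and control library 1 high. Ciita was at 7.99, 15.5 and 14.1 CPM against 11.6, 8.73 and 7.57 CPM. The log2 fold changes of these 5 genes ranged from 0.11 (SE 0.42) for H2-Eb1 to 0.43 (SE 0.29) for Ciita. Without Dicer control library 3, those of H2-Aa, H2-Eb1 and Cd74 were -0.02, -0.21 and -0.05, and that of H2-Eb1 was also below 0 without mutant library 2 (-0.07) or 3 (-0.02). Control library 3 was female and the other controls male, and mutant library 1 was male and the others female. With sex as a covariate, no member was called.

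The changes in Dgcr8 iKO and Dicer iKO were compared by an interaction term over the 12 libraries. No member passed an adjusted p of 0.05, where 0.0148% of all genes did. At an unadjusted p under 0.05, 2 of the 7 members and 1861 of the 13552 genes tested passed in edgeR, and DESeq2 called no member. The difference was -0.80 (SE 0.26, adjusted p = 0.222, edgeR) for H2-DMa and -0.72 (SE 0.22, adjusted p = 0.197) for H2-DMb1 on the log2 scale. Without Dicer control library 3 these were -1.06 (adjusted p = 0.0169, edgeR) and -0.87 (adjusted p = 0.0384), so whether the mutants differ in the size of the fall rests on that library. For the other 5 members the difference ranged from 0.02 (SE 0.43) for Ciita to 0.63 (SE 0.52) for Cd74.

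Among the neighbouring pathways, the genes of peptide generation were called higher in 4 of 4 cases in Dgcr8 iKO (Ctss by 5.57, SE 0.32, on the log2 scale and Lgmn by 3.06, SE 0.29) and in 2 of 4 in Dicer iKO (Ctss by 3.78, SE 0.47, and Lgmn by 2.18, SE 0.25). Of 5 other class II genes, 3 were tested in Dgcr8 iKO, and all 3 were called higher. They were H2-Oa (3.61, SE 0.66) and H2-Ob (2.63, SE 0.45), chains of H2-O, which restrains H2-DM, and H2-DMb2 (2.16, SE 0.64). In the controls, H2-Ob was at 0.236 to 0.817 CPM and H2-DMb2 at 0.104 to 0.953 CPM, around the floor. All 3 tested genes stayed at low levels, with sums over the list of 6.54 to 9.45 CPM in Dgcr8 iKO and 0.726 to 1.91 CPM in the controls. H2-Oa was thus low in the controls as well. All 3 genes passed the filter through the mutant libraries, so a fall could hardly have been seen. In Dicer iKO, H2-Ob was the only one of this list tested and was not called (1.90, SE 0.71, adjusted p = 0.0957, edgeR). Of 9 class I presentation genes, 4 were called higher in Dgcr8 iKO (Nlrc5, Tap1, H2-D1 and Tap2) and 2 in Dicer iKO (Nlrc5 and H2-D1). Nlrc5, the class I counterpart of Ciita, had log2 fold changes of 1.73 (SE 0.30) and 1.67 (SE 0.38). Of 8 tested interferon-gamma response genes, 3 were called higher in Dgcr8 iKO and 2 in Dicer iKO, with Cxcl10 first in both (3.15, SE 0.35, and 4.17, SE 0.33). March1 was called higher in both mutants (1.91, SE 0.31, and 1.70, SE 0.41), as was Cd40 (2.21, SE 0.50, and 2.14, SE 0.56). No regulator of the list was called in either.

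Marker lists moved in the mutants too. Of 14 macrophage markers, 11 were called higher and 1 lower (Cd163, -2.61, SE 0.29) in Dgcr8 iKO, and 10 were called higher in Dicer iKO. Their summed level was 3238 to 7826 CPM in Dgcr8 iKO, 612 to 710.5 CPM in its controls, 4742 to 8483 CPM in Dicer iKO and 638 to 1579 CPM in its controls. Dicer control library 1, with the highest class II levels of its group, also had the highest macrophage sum, 1579 CPM. Dgcr8 iKO library 2, with the highest class II levels, had the lowest macrophage sum of its group, 3238 CPM. T cell markers summed to 16.8 to 24.9 CPM in Dgcr8 iKO and 0.136 to 0.519 CPM in its controls, and to 11.2 to 26.7 CPM in Dicer iKO and 0.676 to 2.3 CPM in its controls. Of the T cell markers tested, 3 of 3 were called higher in Dgcr8 iKO and 1 of 1 in Dicer iKO. The sums in the Dgcr8 controls were near the floor, so a tested gene could hardly have been lower there. Cd4 took most of the sum in Dicer iKO (11.1 to 25.8 CPM) and 9.64 to 22 CPM of it in Dgcr8 iKO. Cd3e was at 0.117 to 0.955 CPM in Dgcr8 iKO and 0 to 0.345 CPM in Dicer iKO. B cell markers stayed at a sum of 0.709 to 4.3 CPM over all 12 libraries. Of the monocyte and neutrophil markers, 2 of 3 tested were called higher in Dgcr8 iKO and 0 of 2 in Dicer iKO. That list summed to 54.4 to 82.6 CPM in Dgcr8 iKO and 25.3 to 30.6 CPM in its controls. In Dicer iKO it summed to 24 to 69.6 CPM and in its controls to 17.4 to 50.6 CPM. Dendritic cell markers summed to 106 to 250.1 CPM in Dgcr8 iKO and 30.8 to 61.4 CPM in its controls. Itgax, which macrophages can also express, took 55.6 to 209 CPM of the former. Of 8 SC markers, 4 were called lower in Dgcr8 iKO and none in Dicer iKO, with sums of 14710.0 to 28605 and 22253 to 27575 CPM beside 43134 to 46134 and 28076 to 46697 CPM in the controls.

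The summed CPM of the 6 members other than Ciita over that of the macrophage markers was 0.122, 0.364 and 0.0817 in Dgcr8 iKO and 1.08, 1.16 and 0.964 in its controls. It was 0.107, 0.132 and 0.108 in Dicer iKO and 0.626, 0.66 and 0.822 in its controls, so the groups of each comparison did not overlap. The mean ratio in Dgcr8 iKO was 0.177 of that in its controls, and 0.0956 without Dgcr8 iKO library 2. The H2-DM genes per 1000 CPM of SC markers were between 4.43 and 6.3 CPM in all 12 libraries of this experiment. The mean was 4.95 ± 0.794 in Dgcr8 iKO, 5.87 ± 0.486 in its controls, 5.17 ± 0.459 in Dicer iKO and 4.79 ± 0.229 in its controls (SD, n = 3 each), and the groups of each comparison overlapped. The part of cell composition and of the lower SC markers in these changes was not tested.

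**Figure D5:**
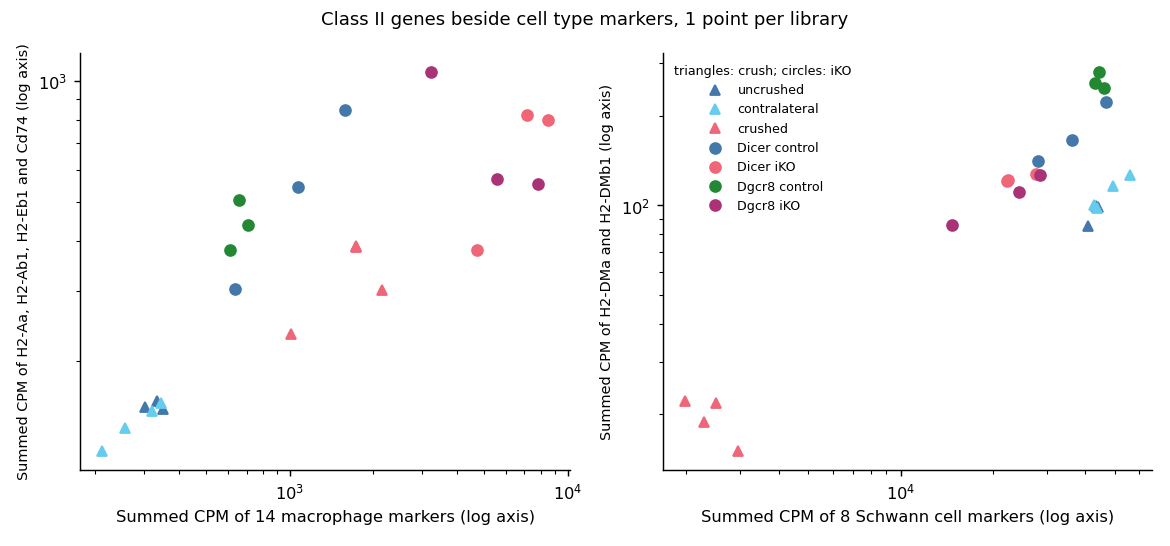
Each point is 1 library. The left panel plots summed CPM of H2-Aa, H2-Ab1, H2-Eb1 and Cd74 against 14 macrophage markers, and the right panel H2-DMa and H2-DMb1 against 8 Schwann cell markers (log axes, levels not comparable between the crush and knockout experiments). The crushed libraries lie apart at 1979 to 2957 CPM of Schwann cell markers, and the Dgcr8 iKO libraries (14710.0 to 28605) lie below their controls (43134 to 46134) on the same axis.

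The files give counts per transcript, and 3 members had at least 2 transcripts with 5% or more of the counts of the gene in an experiment. Cd74 had a transcript of 1218 bases with 8 exons (ENSMUST00000050487) and one of 1410 bases with 9 exons (ENSMUST00000097563), the longer form being known to carry an added thyroglobulin-type segment. The longer form took 20.5% ± 1.86 of the Cd74 counts in crushed (n = 4), 26% ± 3.86 in uncrushed (n = 3) and 28.6% ± 4.57 in contralateral nerves (SD, n = 4). It took 23.5% ± 4.95 in Dgcr8 iKO, 31% ± 1.34 in its controls, 25.9% ± 2.56 in Dicer iKO and 27.4% ± 0.66 in its controls (SD, n = 3 each). H2-DMa had the coding transcript of 1555 bases (ENSMUST00000042121) and a transcript of 649 bases with a retained intron (ENSMUST00000173907, chromosome 17, 34137028 to 34138180). The latter took 24% ± 1.45 of the H2-DMa counts in crushed (n = 4), 6.96% ± 6.61 in uncrushed (n = 3) and 1.95% ± 1.47 in contralateral nerves (SD, n = 4). In estimated counts it stood at 27.8, 32.7, 32.2 and 31.1 in the crushed libraries, at 0, 63.1 and 24.9 in the uncrushed and at 23.6, 0, 18.5 and 11 in the contralateral ones. A shorter coding transcript of H2-Aa (826 bases, ENSMUST00000174751) took 7.09% ± 5.09 in crushed, 2.80% ± 1.94 in uncrushed and 8.12% ± 6.75 in contralateral nerves (SD, n = 4, 3 and 4), with overlapping values. In 13 comparisons by a two-sided exact permutation test over libraries, the lowest p was 0.0286, for Cd74 against contralateral nerves and for H2-DMa in both crush comparisons. This is the smallest value these designs allow, 3 against 3 libraries cannot go below 0.1, and no test passed after Benjamini-Hochberg adjustment (lowest adjusted p = 0.124). With so few libraries a pass was hardly possible, so its absence says little about the shares. Transcript shares are estimates, because reads can fit more than 1 form.

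The genes most alike in pattern were taken by Pearson's r between log2(CPM + 1) and the mean standardized profile of the 7 members, over libraries. In the crush experiment, where the crushed libraries stand apart from the other 7, the first 5 of 16599 genes were Gm26316 (r = 0.966), Tpcn1 (0.955), Smagp (0.952), Alox5 (0.948) and Lingo1 (0.947), over 11 libraries. In the knockout experiment the first 5 of 13252 genes were Prr13 (0.839), Phf11d (0.832), Tspan32 (0.826), Pde3a (0.8104) and Tprn (0.783), over 12 libraries. Because the mean joins genes that moved in opposite directions, the profile was also taken for subsets chosen after the values were seen. Nearest to H2-DMa and H2-DMb1 were Atl1 (0.998) and Hsbp1 (0.997) in the crush experiment and Chn2 (0.986) and Grb14 (0.984) in the knockout experiment. Nearest to H2-Aa, H2-Ab1, H2-Eb1 and Cd74 were the lipoxygenase gene Alox5 (0.986) and the Fc receptor gene Fcgr3 (0.985) after crush, and Smco4 (0.913) and Prr13 (0.902) in the knockout experiment. All points of an experiment share its scaling, and r is given as a description.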

How the data were processed

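RNA of mouse sciatic nerve was measured in 23 libraries. Per transcript of an Ensembl GRCm38 annotation (release not given in the sources used here), the authors deposited RSEM expected counts, TPM and FPKM, made after trimming by Trimmomatic and alignment by STAR. For each gene, the deposited expected counts of its transcripts were added up and the sum was rounded. The deposited FPKM, scaled by TMM, served for levels per length, and the deposited TPM served only as an alternative for transcript shares. Genes were named by identifier from a GRCm38 table.

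edgeR 4.0.16 (R 4.3.3) was run on the whole table of the groups compared: filterByExpr (minimum count 10), TMM, glmQLFit and glmQLFTest, with Benjamini-Hochberg adjustment over all genes tested and the thresholds of fold change and adjusted p given with the results. The code recovered known changes in simulated counts in which few genes changed, as many raised as lowered. Scaling where many genes change, as after crush, was not tested in this way. Alternatives were RLE scaling, no filter, DESeq2 1.42.0, a replicate block, an adjusted p of 0.01, all groups in one fit, sex as a covariate and each library left out. Counts include PCR copies, so precision and floors cover counting error only. No 2 replicates were copies of 1 library (27 pairs, chi-square per degree of freedom 3.86 to 40.3). The study's methods give as many mice per group as there are libraries, so p-values measure the spread between mice of a group. They do not say whether a crushed and a contralateral nerve of the same number came from the same mouse. All 7 members are named in all comparisons, and each list names up to 4 genes with the largest change among those called. Where groups are said not to overlap, the share of all genes apart in this way was not counted. The ratios of gene sums, other than members over macrophage markers, and the plot of neighbouring genes were chosen after the values were seen. The members, lists and tests were chosen with earlier results of these data known.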

Additional observations from a re-analysis of the deposited data

Results flagged for a closer look

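In the crushed group, library 2 lay apart from the other 3 in the class II genes relative to macrophage markers. Summed CPM of the 6 members other than Ciita over that of the 14 macrophage markers was 0.1483 in this library and 0.235 to 0.247 in the others, over that of 5 macrophage markers it was 1.06 and 1.69 to 1.72, and for H2-Aa, H2-Ab1, H2-Eb1 and Cd74 over the 14 markers it was 0.1396 and 0.222 to 0.232. The gap to the nearest library took 0.876, 0.955 and 0.893 of the range of the group, above the critical value of Dixon's test for 4 values. The 3 ratios share their counts and are 1 pattern. In all, 30 sets of 4 values were examined, and chance flags about 1 in 20. The library also had the highest sum of macrophage markers in its group, 2154 CPM. The mean ratio of crushed to uncrushed nerves was 0.283 with it and 0.313 without it.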

How the results depend on the processing

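Of 581 values of the members' log2 fold changes under alternatives, 546 kept their direction and their side of the thresholds. In the crush experiment the scaling itself was uncertain: without the filter the median of all genes moved by 0.23 (log2) in crushed against uncrushed and by 0.17 against contralateral nerves, with DESeq2 by 0.18 in the former, and with all groups in one fit by -0.10, and 42% of calls over all genes were higher with edgeR as described and 55.3% with DESeq2. The opposite directions of H2-DM and the other members after crush held under all of these. The number of members called in crushed against uncrushed nerves was 6 and ranged from 5 to 7 without single libraries. It was 7 without the filter and with DESeq2 (H2-Aa 1.22 and 1.17 on the log2 scale), and 5 with all groups in one fit (H2-Eb1 0.96). Without single libraries it was 6 to 7 against contralateral nerves, 0 to 0 for contralateral against uncrushed nerves and for Dicer iKO, 2 to 3 for Dgcr8 iKO and 0 to 2 for the difference between mutants, the 2 being H2-DMa and H2-DMb1 without Dicer control library 3, where 401 genes passed instead of 2.

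The replicate numbers did not pair the libraries by the rule used, a correlation of same-numbered deviations above 0.1 in every pair. The lowest correlation was -0.196 to -0.119 over the comparisons. For crushed against contralateral nerves the correlations ran from -0.135 to 0.225, so a pairing of some libraries was not excluded. By the study's methods the contralateral nerve came from the crushed animals, and the main test treated these groups as independent. With the replicate block, 5 members were called in crushed against uncrushed nerves (H2-Eb1 0.97), 7 against contralateral nerves, 2 in Dgcr8 iKO and 0 in the other comparisons. Calls over all genes were 640 in Dicer iKO with the block and 1175 without it, 6 and 0 for contralateral against uncrushed nerves, and 231 for the difference between mutants with DESeq2 and 2 with edgeR.

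Directions turned only for members that were not called. For contralateral against uncrushed nerves, H2-Ab1 (-0.03) was 0.019 without the filter and 0.057 with DESeq2, and H2-Eb1 (-0.08) was 0.0091 with DESeq2, and without single libraries they ranged from -0.11 to 0.0597 and from -0.14 to 0.0848. Without single libraries the Dicer iKO values ranged from -0.0222 to 0.66 for H2-Aa, -0.21 to 0.57 for H2-Eb1 and -0.0546 to 0.66 for Cd74. The difference between mutants ranged from -0.23 to 0.33 for Ciita, -0.14 to 0.64 for H2-Eb1 and -0.0193 to 0.67 for H2-Aa. The cause was not tested.

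The ratio of the members to macrophage markers in Dicer iKO was 0.165 of that in its controls with 14 markers and 0.274 with 5, and 0.153 to 0.18 without single libraries. Shares by TPM passed in no test either, where a pass was hardly possible for the same reason as with counts, the few libraries. Sex as a covariate was not run for Dgcr8 iKO, whose libraries were all male. Low levels such as those of H2-DMb2 limit precision.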
